A study of Rattus norvegicus with 6 samples.

Results

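The genes that are widely used to recognise the resident macrophages of the heart were followed, 10 in all, in the myocardium of rats after ischemia and reperfusion. These were Cd163, Mrc1, Lyve1, Folr2, Csf1r, Cx3cr1, C1qa, C1qb, C1qc and Cd68. Each was taken by its symbol, and all 10 of 10 were found among the 30452 rows of the deposited expression table, with 1 row each. Myocardial tissue of 3 sham rats and 3 I/R rats was sequenced, 1 library per rat. In the I/R group the left anterior descending coronary artery was tied over a tube for 30 min and released, and the heart was taken after 6 h of reperfusion. The labels write both times for the sham rats as well. All 6 rats were wild-type males, and no transgene, Cre or drug was named for either group. The labels do not say which piece of the heart was taken, so the share of injured tissue in a library is not known, and they do not state separate litters or batches. The p-values below therefore measure only the spread between these 6 samples.

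Resident macrophages settle in the heart before birth and maintain themselves there, and they take up dying cells, damaged mitochondria and other debris. In rodents a large subset of them carries scavenger and uptake receptors, among them CD163, the mannose receptor, LYVE1 and folate receptor beta, and is found along vessels. After an infarct these cells are lost from the injured area while neutrophils and then monocytes enter from the blood. In whole tissue, fewer cells of a type and less RNA per cell cannot be told apart, and this holds for every level below.

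Of the 9 genes that could be tested, Cd163 and Mrc1 fell after I/R, C1qb rose, and 6 did not pass the test. The level of Cd163 in the I/R group was 35.2% of that in the sham group, and that of Mrc1 was 58.9%. The log2 fold change was -1.38 (SE 0.26) for Cd163, with an adjusted p of 0.00567 in limma, -0.77 (SE 0.25, adjusted p = 0.0404) for Mrc1, and 0.78 (SE 0.24, adjusted p = 0.0321) for C1qb. Csf1r, the receptor that most macrophages depend on, had a difference of 0.08 with a 95% interval of -0.41 to 0.57. The genes commonly read together as resident macrophage genes thus ran from a fall in Cd163 to a rise in C1qb in the same 6 libraries. The Cd163 call held under every scaling tried and whichever rat was left out, while the calls of Mrc1 and C1qb did not. Among all 10942 genes tested, 25.5% passed as higher and 7.36% as lower, against 1 and 2 of these 9.

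Values are FPKM, fragments scaled to the length of the gene and the size of the library, as the authors deposited them. Tests were made on log2(FPKM + 0.1), a scale that understates the change of low genes, for genes with a mean of at least 0.5 FPKM. The adjusted p covers all 10942 genes. The low values moved in whole steps, and for all 10 genes the FPKM of the 6 libraries matched whole numbers of fragments within 0.01, which gave the fragments behind each value. These numbers are the smallest that match, and a common factor cannot be told. Library sums ranged from 894902 to 928941 FPKM in sham and from 731063 to 825490 FPKM in I/R. The mRNAs encoded by the mitochondrial genome took 80.1% to 86.2% of that sum in sham and 61.8% to 71.5% in I/R, and 2 of these 13 genes passed as lower. A level expressed per total fragments therefore shares its denominator with a part that differed between the groups. When each library was scaled over the other genes alone, the median over all genes tested shifted by -0.75 on the log2 scale, from 0.29 to -0.46, and where this changes the direction or the call of one of the 10 genes it is said beside the gene. The share of all genes called higher and lower was 7.25% and 26.1% on that scale, 31.5% and 4.61% as TPM (each library set to the same sum), 18.5% and 14.2% after centring each library on its median, 13.2% and 14.2% after quantile normalization, 28.2% and 8.18% with the replicate number as a block, and 11.4% and 3.32% with no filter.

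**Figure D1:**
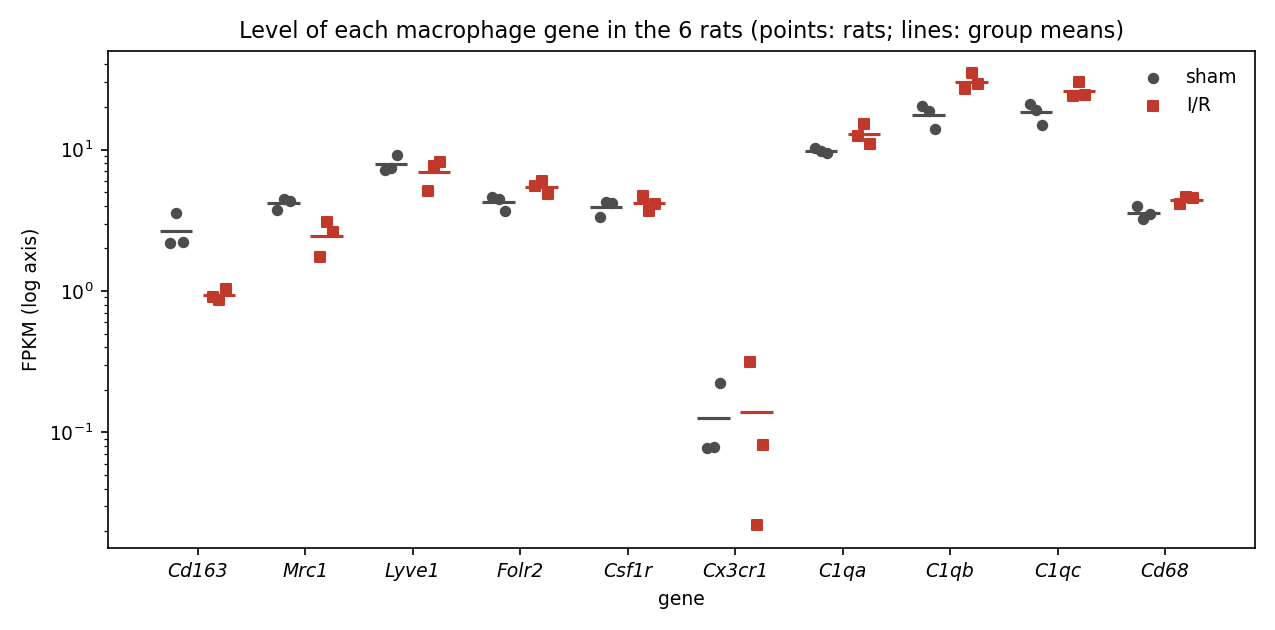
Level of each of the 10 genes in FPKM on a log axis. Points are rats and lines are group means of 3, with sham in grey and I/R in red. The Cd163 values of the I/R rats lie between 0.869 and 1.03, below all 3 sham rats, while those of C1qb lie between 26.7 and 34.6, above all 3, and those of Csf1r overlap.

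The promoters of the genes whose levels moved furthest down, Cd163 and Mrc1, and of the pair C1qa and C1qb, which lie on chromosome 5 with only C1qc between them, are shown so that the letters of the genes that fell can be set beside those of C1qb, which passed as higher, and of C1qa, which did not pass. Each run is 250 bases before to 50 bases after the start of the RefSeq gene in the GRCr8 build, on the strand of the gene. Capitals mark the 6 letters GAGGAA, the core of sites bound by PU.1, the factor on which the macrophage lineage depends, and TGCTGA, a core of sites bound by MAF factors, on either strand, so that TTCCTC and TCAGCA are the same matches read from the other strand.
Cd163 (chr4:158770524-158770823, plus strand): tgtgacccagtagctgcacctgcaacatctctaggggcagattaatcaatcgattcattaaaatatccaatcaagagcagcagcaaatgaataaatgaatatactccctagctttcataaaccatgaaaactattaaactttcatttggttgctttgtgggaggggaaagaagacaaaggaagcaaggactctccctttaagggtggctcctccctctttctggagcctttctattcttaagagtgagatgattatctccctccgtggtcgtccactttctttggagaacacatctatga
Mrc1 (chr17:82157475-82157774, plus strand): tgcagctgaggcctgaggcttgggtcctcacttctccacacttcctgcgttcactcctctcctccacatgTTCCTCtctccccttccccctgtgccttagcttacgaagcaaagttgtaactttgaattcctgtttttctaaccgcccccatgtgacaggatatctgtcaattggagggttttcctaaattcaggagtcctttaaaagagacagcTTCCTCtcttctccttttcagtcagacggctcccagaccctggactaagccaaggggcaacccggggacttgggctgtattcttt
C1qa (chr5:154419884-154420183, minus strand): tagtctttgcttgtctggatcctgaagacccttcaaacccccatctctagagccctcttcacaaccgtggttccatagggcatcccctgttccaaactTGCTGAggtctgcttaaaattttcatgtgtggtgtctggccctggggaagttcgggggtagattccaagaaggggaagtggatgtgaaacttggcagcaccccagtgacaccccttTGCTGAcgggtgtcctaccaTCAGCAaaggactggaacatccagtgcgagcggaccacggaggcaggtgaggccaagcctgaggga
C1qb (chr5:154407778-154408077, minus strand): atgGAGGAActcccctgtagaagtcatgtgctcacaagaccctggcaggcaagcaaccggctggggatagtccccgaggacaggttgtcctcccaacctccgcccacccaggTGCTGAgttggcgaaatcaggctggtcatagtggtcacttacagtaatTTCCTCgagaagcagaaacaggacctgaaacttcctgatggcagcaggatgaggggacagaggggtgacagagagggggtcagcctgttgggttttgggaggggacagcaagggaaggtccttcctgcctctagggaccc
Windows were found for 9 of the 10 genes by symbol. GAGGAA occurred in 4 of these 9, with 2 matches each in Mrc1, C1qb, Csf1r and Cd68, and in 27.6% of the 33469 promoter windows of the rat. TGCTGA occurred in 4 of the 9, 3 times in C1qa and once each in C1qb, Folr2 and Cd68, and in 18.4% of all windows. Neither run of letters was in the windows of Cd163, Lyve1 and Cx3cr1. The genes that fell shared no match, since Mrc1 held GAGGAA and Cd163 held neither. A match is a run of letters and was not tested as a binding site.

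Cd163 (ENSRNOG00000010253) encodes the scavenger receptor that takes up haemoglobin bound to haptoglobin. In the order of the replicate numbers, which is kept below, its level was 2.19, 3.58 and 2.21 FPKM in sham and 0.908, 0.869 and 1.03 FPKM in I/R. These values rested on 443, 853 and 506 fragments in sham and on 160, 164 and 183 in I/R. The sham rats varied more (2.66 ± 0.796 FPKM, mean ± SD, n = 3), with replicate 2 the highest, than the I/R rats (0.935 ± 0.0833 FPKM, n = 3), and the groups did not overlap. The 95% interval of the log2 fold change was -1.97 to -0.80. Cd163 was the member with the largest change, and it stayed past the threshold under every scaling tried, with log2 fold changes from -2.12 without the mitochondrial mRNAs to -1.21 after rescaling to TPM, and whichever rat was left out (adjusted p from 0.00773 to 0.0277). With a pseudocount of 1 in place of 0.1 its log2 fold change was -0.90 (adjusted p = 0.00714). Only 2.9% of all genes tested had a lower log2 fold change.

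Mrc1 (ENSRNOG00000018251) encodes the mannose receptor CD206, an uptake receptor for glycoproteins. Its level was 3.75, 4.49 and 4.33 FPKM in the sham rats, on 832, 1178 and 1092 fragments. In the I/R rats it was 1.74, 3.05 and 2.61 FPKM, on 337, 634 and 511 fragments. The group means were 4.19 ± 0.392 and 2.47 ± 0.669 FPKM (mean ± SD, n = 3 each), the groups did not overlap, and I/R replicate 1 was the lowest of all. The 95% interval of the log2 fold change was -1.33 to -0.21. The call was close to its threshold. Its direction held throughout, but it no longer passed after rescaling to TPM (-0.58, adjusted p = 0.1), with no filter (0.0805), with limma fitted without a trend (0.0535), without sham replicate 1, 2 or 3 (adjusted p of 0.0542, 0.105 and 0.117) or without I/R replicate 1 or 3 (0.101 and 0.072, limma). Without I/R replicate 1 the log2 fold change was -0.55.

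Lyve1 (ENSRNOG00000063592) encodes a hyaluronan receptor of resident macrophages and also of lymphatic endothelium. Its level was 7.20, 7.35 and 9.14 FPKM in sham and 5.07, 7.61 and 8.22 FPKM in I/R. The groups overlapped, since only I/R replicate 1 lay below the sham rats. The log2 fold change was -0.20 (95% interval -0.76 to 0.36, adjusted p = 0.568), and it was 0.011 without I/R replicate 1. Scaled without the mitochondrial mRNAs, it passed as lower (-0.97, adjusted p = 0.0274). Of the 6 lymphatic endothelial markers listed, 4 were tested and Flt4 and Pdpn passed as higher, while Ccl21, the most abundant, was at 109 ± 40.1 FPKM in sham and 64.4 ± 24 FPKM in I/R, which did not pass. On the scale without the mitochondrial mRNAs, where Lyve1 passed as lower, Ccl21 (-1.55, adjusted p = 0.00815) and Mmrn1 (-1.77, adjusted p = 0.0243) passed as lower too, and Flt4 and Pdpn did not pass. The higher calls of this list were 0 with no filter, 1 with median centring or quantile normalization, and 0 to 1 whichever rat was left out (0 without sham replicate 1 or I/R replicate 2), and Pdpn overlapped between the groups. The summed level of the 6 markers was 78.9 to 161 FPKM in sham and 43.5 to 94.4 FPKM in I/R, and Prox1, a defining marker, was under the filter. How much of the Lyve1 signal came from lymphatic endothelium was not tested.

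Folr2 (ENSRNOG00000019890) encodes folate receptor beta, a marker of the same perivascular subset. Its level was 4.63, 4.46 and 3.68 FPKM in sham and 5.57, 5.95 and 4.84 FPKM in I/R, so that all 3 I/R rats lay above the sham rats. The log2 fold change of 0.35 (95% interval -0.13 to 0.83) did not pass the test (adjusted p = 0.232 in limma). It was -0.42 without the mitochondrial mRNAs, with no call there either.

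Csf1r (ENSRNOG00000018414) and Cx3cr1 (ENSRNOG00000018509) encode receptors for signals that macrophages live on or are held by, CSF1 and IL34 for Csf1r and the chemokine CX3CL1 for Cx3cr1. Csf1r was at 3.35, 4.24 and 4.19 FPKM in sham and at 4.73, 3.67 and 4.10 FPKM in I/R. The highest and the next to lowest value both belonged to I/R rats and the groups overlapped (3.93 ± 0.50 and 4.16 ± 0.534 FPKM, n = 3 each, adjusted p = 0.797). Its log2 fold change turned to -0.17 after centring each library on its median, to -0.27 after quantile normalization and to -0.69 without the mitochondrial mRNAs, and passed in none of them.

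Cx3cr1 was the one gene under the filter. It stood at 0.0774, 0.0787 and 0.223 FPKM in sham and at 0.313, 0.0221 and 0.0820 FPKM in I/R. The fragments numbered 15, 18 and 49 in sham and 53, 4 and 14 in I/R. The highest and the lowest of the 6 values were both I/R rats, and the two-sided exact permutation test gave p = 1. A difference was not detectable at this depth and with this spread.

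C1qa (ENSRNOG00000012807), C1qb (ENSRNOG00000012749) and C1qc (ENSRNOG00000012804) encode the 3 chains of C1q, the molecule that starts the classical complement pathway, and tissue macrophages are its main source. They were the most abundant of the 10 genes in both groups. C1qa was at 10.2, 9.73 and 9.45 FPKM in sham and at 12.4, 15.1 and 11.0 FPKM in I/R. C1qb was at 20.3, 18.6 and 13.9 FPKM in sham and at 26.7, 34.6 and 29.1 FPKM in I/R. C1qc was at 20.9, 19.1 and 14.9 FPKM in sham and at 23.9, 29.9 and 24.3 FPKM in I/R. For each of the 3 chains every I/R rat lay above every sham rat, and I/R replicate 2 was the highest.

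C1qb alone passed the test among the 3 chains, with group means of 17.6 ± 3.34 and 30.1 ± 4.04 FPKM (n = 3 each) and a 95% interval of 0.25 to 1.32 on the log2 scale. C1qc reached 0.51 (-0.01 to 1.03, adjusted p = 0.117) and C1qa 0.37 (-0.12 to 0.86, adjusted p = 0.215). The C1qb call was lost after centring on the median (0.53, adjusted p = 0.112), and the value came to -0.06 after quantile normalization and to -0.00079 without the mitochondrial mRNAs (adjusted p of 0.847 and 0.998 in limma). It was also lost without sham replicate 2 or 3 (adjusted p of 0.0698 and 0.133) and without I/R replicate 2 or 3 (0.12 and 0.0745). C1qa and C1qc were likewise below 0 in these scalings, at -0.41 and -0.27 without the mitochondrial mRNAs and at -0.28 and -0.31 after quantile normalization. Set against the median of all genes, the C1qb change was 0.49 higher as deposited and 0.46 higher without the mitochondrial mRNAs. The difference from that median was only 0.12 among genes with a mean of at least 5 FPKM, and -0.04 after quantile normalization.

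Cd68 (ENSRNOG00000037563) encodes a protein of the late endosome and lysosome that all macrophages carry, recruited ones included. It was at 4.0, 3.25 and 3.49 FPKM in sham and at 4.12, 4.61 and 4.52 FPKM in I/R. The groups did not overlap, although sham replicate 1 lay just under I/R replicate 1. The log2 fold change was 0.30 (95% interval -0.16 to 0.76, adjusted p = 0.289), and -0.47 without the mitochondrial mRNAs.

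Counted together, 5 of the 9 genes tested had all I/R rats above all sham rats (Folr2, C1qa, C1qb, C1qc and Cd68), where 37.2% of all genes tested did so, and 2 had all I/R rats below (Cd163 and Mrc1), where 13% did. The median log2 fold change of the 9 was 0.30, beside 0.29 for all genes, and -0.47 beside -0.46 without the mitochondrial mRNAs. On these scales the group sat in the middle of all genes. The spread among its members set Cd163 and Mrc1 at one end and C1qb at the other. With quantile normalization the median of the 9 was -0.28, below the -0.022 of all genes. At a mean of 5 FPKM the members still tested had 0.44, below the 0.66 of all genes.

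**Figure D2:**
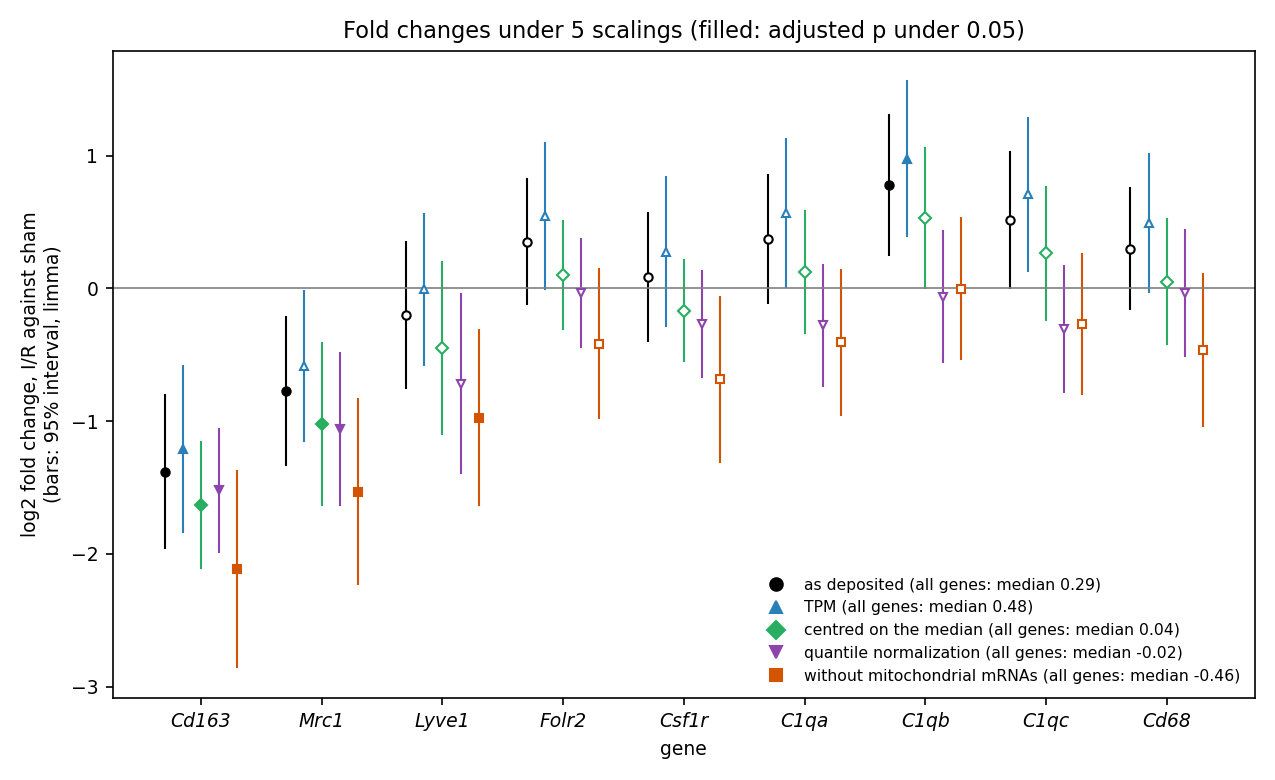
Log2 fold change of I/R against sham for the 9 genes tested, with 95% intervals from limma, under the deposited scale and 4 other scalings. Filled symbols mark an adjusted p under 0.05. Cd163 is filled under all 5, C1qb under the deposited scale and TPM, Mrc1 under all but TPM, and Lyve1 only without the mitochondrial mRNAs.

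Order of level changed as well. In sham the order ran from C1qc and C1qb through C1qa and Lyve1 to Folr2, Mrc1, Csf1r, Cd68, Cd163 and Cx3cr1, and each neighbour among Folr2, Mrc1, Csf1r, Cd68 and Cd163 overlapped the next. In I/R, C1qb stood before C1qc, which it overlapped, then came C1qa, Lyve1, Folr2, Cd68, Csf1r, Mrc1, Cd163 and Cx3cr1. There Mrc1 lay below Csf1r without overlap, where in sham their ranges had overlapped, and Cd163 lay below Mrc1 without overlap in both groups.

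A ratio of 2 genes within a library does not move with the scaling of that library. The members were therefore also set against Csf1r and the C1q chains against each other, 12 ratios in all. The ratios printed are FPKM over FPKM. Their log2 differences and tests used log2(FPKM + 0.1) of each gene. For low genes these depart from the printed ratios and can move with the scaling. Cd163 stood at 0.655, 0.844 and 0.527 of the Csf1r level in the sham rats and at 0.192, 0.237 and 0.251 of it in the I/R rats, a log2 difference of -1.46 without overlap. Mrc1 stood at 1.12, 1.06 and 1.03 of Csf1r in sham and at 0.368, 0.832 and 0.637 in I/R (-0.85, without overlap). Both receptors were thus lower beside Csf1r in every I/R rat. For each of these the two-sided exact permutation test gave p = 0.1, the smallest that 3 rats against 3 allow, and 0.3 after adjustment over the 12 ratios.

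The ratio of C1qb to C1qc varied least within groups. It was 0.973, 0.977 and 0.931 in sham and 1.12, 1.16 and 1.20 in I/R, a log2 difference of 0.27 (exact permutation p = 0.1, 0.3 adjusted). Among the fragments of both genes, C1qb took 39.9% (37.9 to 41.9), 40.0% (38.0 to 41.9) and 38.8% (36.6 to 41.1) in the sham libraries, with exact 95% binomial intervals that cover counting error only. In I/R it took 43.3% (41.3 to 45.2), 44.0% (42.4 to 45.7) and 44.9% (43.0 to 46.9). The shares did not overlap between groups, although the intervals of neighbouring sham and I/R libraries did in part. They rest on the smallest whole numbers of fragments for each gene, and a common factor in either gene would change the shares and the intervals. Whichever rat was left out, the log2 difference stayed between 0.24 and 0.29. C1qa to C1qb was 0.503, 0.522 and 0.680 in sham and 0.463, 0.438 and 0.376 in I/R (-0.41, without overlap, exact permutation p = 0.1).

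The other 8 ratios overlapped between groups. C1qb to Csf1r differed by 0.70 on the log2 scale (exact permutation p = 0.2), C1qc to Csf1r by 0.43, C1qa to Csf1r by 0.29, Folr2 to Csf1r by 0.27 and Cd68 to Csf1r by 0.22. Lyve1 to Csf1r differed by -0.28, and by 0.022 without I/R replicate 1, whose ratio was the lowest. Cx3cr1 to Csf1r differed by -0.13, on few fragments, and C1qa to C1qc by -0.14.

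**Figure D3:**
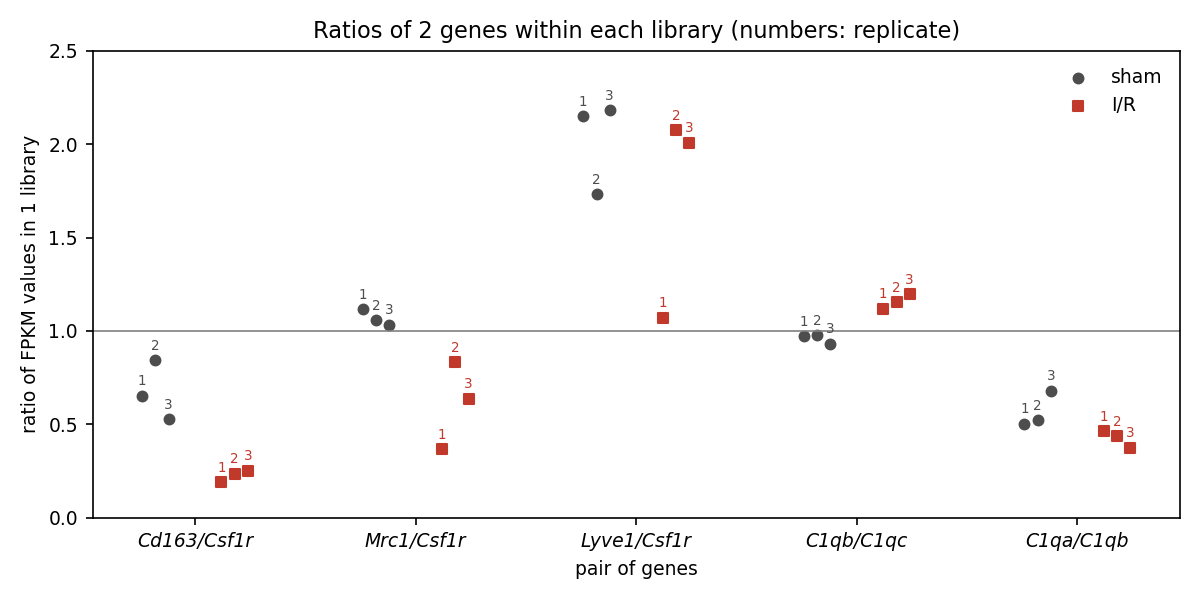
Ratio of 2 genes within each library (FPKM divided by FPKM), sham in grey and I/R in red, with the replicate number above each point and a line at 1. Cd163 and Mrc1 against Csf1r and C1qa against C1qb are lower in all 3 I/R rats, C1qb against C1qc crosses from below to above 1, and Lyve1 against Csf1r overlaps.

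Ligands and partners of the members were read from lists of genes by role. Their counts stand beside 25.5% of all genes tested called higher and 7.36% called lower. Without the mitochondrial mRNAs these shares were 7.25% and 26.1%. The mRNA of Csf1, which encodes the main ligand of CSF1R, rose where that of the receptor gene did not pass. Csf1 was at 2.20, 2.10 and 2.60 FPKM in sham and at 7.88, 12.0 and 9.23 FPKM in I/R, a log2 fold change of 2.01 (SE 0.23, adjusted p = 0.00133 in limma), and 1.25 without the mitochondrial mRNAs (adjusted p = 0.00748). Il34, the other ligand, was at 3.68 ± 1.69 FPKM in sham and 3.24 ± 0.744 FPKM in I/R and overlapped (-0.11, adjusted p = 0.813). Of the 7 tested genes for CSF1 receptor ligands and lineage factors, 3 rose and none fell, the other 2 being Csf2rb (2.26), the shared beta chain of the GM-CSF receptor, and Irf8 (0.98), a factor of monocyte development. Without the mitochondrial mRNAs 2 genes of this list were higher and 1 lower. Spi1, which encodes PU.1, reached 0.61 and did not pass, and it was -0.14 without the mitochondrial mRNAs. Cx3cl1, the ligand of CX3CR1, was at 2.49 ± 0.256 FPKM in sham and 4.13 ± 1.5 FPKM in I/R (0.65, adjusted p = 0.0983), and -0.11 without the mitochondrial mRNAs. None of the 3 genes of the CX3C list passed, and Adam10, a sheddase of CX3CL1, was lower without the mitochondrial mRNAs (-1.03, adjusted p = 0.0293).

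Hmox1, the enzyme that breaks down the haem that CD163 brings in, rose from 3.83 ± 0.751 to 20.8 ± 6.33 FPKM, a log2 fold change of 2.38 (SE 0.29, adjusted p = 0.00159), opposite in sign to Cd163. Of the 7 haem clearance genes tested 3 rose, with Blvrb (1.22), a reductase of the next step, and Fth1 (1.01), the heavy chain of ferritin, and none fell. On the scale without the mitochondrial mRNAs only Hmox1 passed (1.60, adjusted p = 0.00237). Hp, which encodes haptoglobin, was at 0.351 ± 0.181 and 0.189 ± 0.142 FPKM, under the filter. Hmox1 is made by many cells of injured tissue, and which cells made it here was not tested.

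Among 7 tested partners of C1q in the classical pathway 2 rose, C1qbp (1.77), which encodes a mitochondrial protein that can bind C1q, and Serping1 (0.75, adjusted p = 0.0375), the inhibitor of C1r and C1s, whose value was -0.03 without the mitochondrial mRNAs. With a rat left out the adjusted p of Serping1 ranged from 0.0453 to 0.135 in limma. A count of 2 among 7 is near the 25.5% of all genes tested that passed as higher. C1r and C1s, the proteases that complete the C1 complex, were at 0.48 and 0.57 on the log2 scale and did not pass (adjusted p of 0.157 and 0.166), and at -0.30 and -0.21 without the mitochondrial mRNAs, where C4a and C4b passed as lower. For Cd68, 4 of 7 tested genes of the lysosome rose, Npc2 (1.15), Ctsd (1.12), Lamp1 (1.01) and Ctsb (0.97), with a list median of 0.97, and none of them passed without the mitochondrial mRNAs (list median 0.19). Of 5 tested relatives in hyaluronan and mannose binding, Has1, a hyaluronan synthase, rose (4.58) and Stab1 fell, and Hyal1 was listed at 0 in all 6 libraries. Of 8 tested efferocytosis genes, Gas6, the bridging ligand of MERTK, rose (0.87, adjusted p = 0.0468; 0.09 without the mitochondrial mRNAs) and Stab1 fell. Pros1 was lower without the mitochondrial mRNAs. Neither of the 2 tested folate uptake genes passed, and Slc46a1 was lower without the mitochondrial mRNAs (-1.50, adjusted p = 0.0214). Genes of these lists that the naming rule did not cover (Irf8, Adam10, C4a, C4b, Pros1, Slc46a1, Blvrb, Fth1, Ctsd, Lamp1, Ctsb, Spi1, and Slco2b1, Adgre1, F13a1, Pf4, Clec10a, Mertk, Flt4, Ccl21, Mmrn1, Prox1, Trem2, Ctss, Ptprc, Coro1a, Cd52, Il1b, Vcan and Cd3g elsewhere) were named after their values were seen.

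Of 13 other genes listed for resident-type macrophages, 7 were tested, 2 fell and none rose, and 3 were lower without the mitochondrial mRNAs. The shares of all genes tested that were lower were 7.36% and 26.1% on these 2 scales. Stab1, a scavenger receptor, was at 3.44, 6.66 and 5.05 FPKM in sham and 1.32, 2.44 and 3.09 FPKM in I/R (-1.14, SE 0.34, adjusted p = 0.03), and Slco2b1, an organic anion transporter, was at 9.98, 10.3 and 9.55 FPKM in sham and 6.22, 5.49 and 5.50 FPKM in I/R (-0.79, SE 0.20, adjusted p = 0.017). Neither overlapped between groups. The list's median was -0.23, below the 0.29 of all genes, and F13a1, Pf4, Clec10a and Mertk overlapped between groups. The Stab1 call was lost without sham replicate 2 or 3 or I/R replicate 1, at -0.92, -1.12 and -0.81, and also with no filter. The count of this list called lower was 1 with no filter, 1 at a mean of 5 FPKM and 0 to 2 with a rat left out. It was also 1 with TPM, where Stab1 still passed and Slco2b1 did not.

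**Figure D4:**
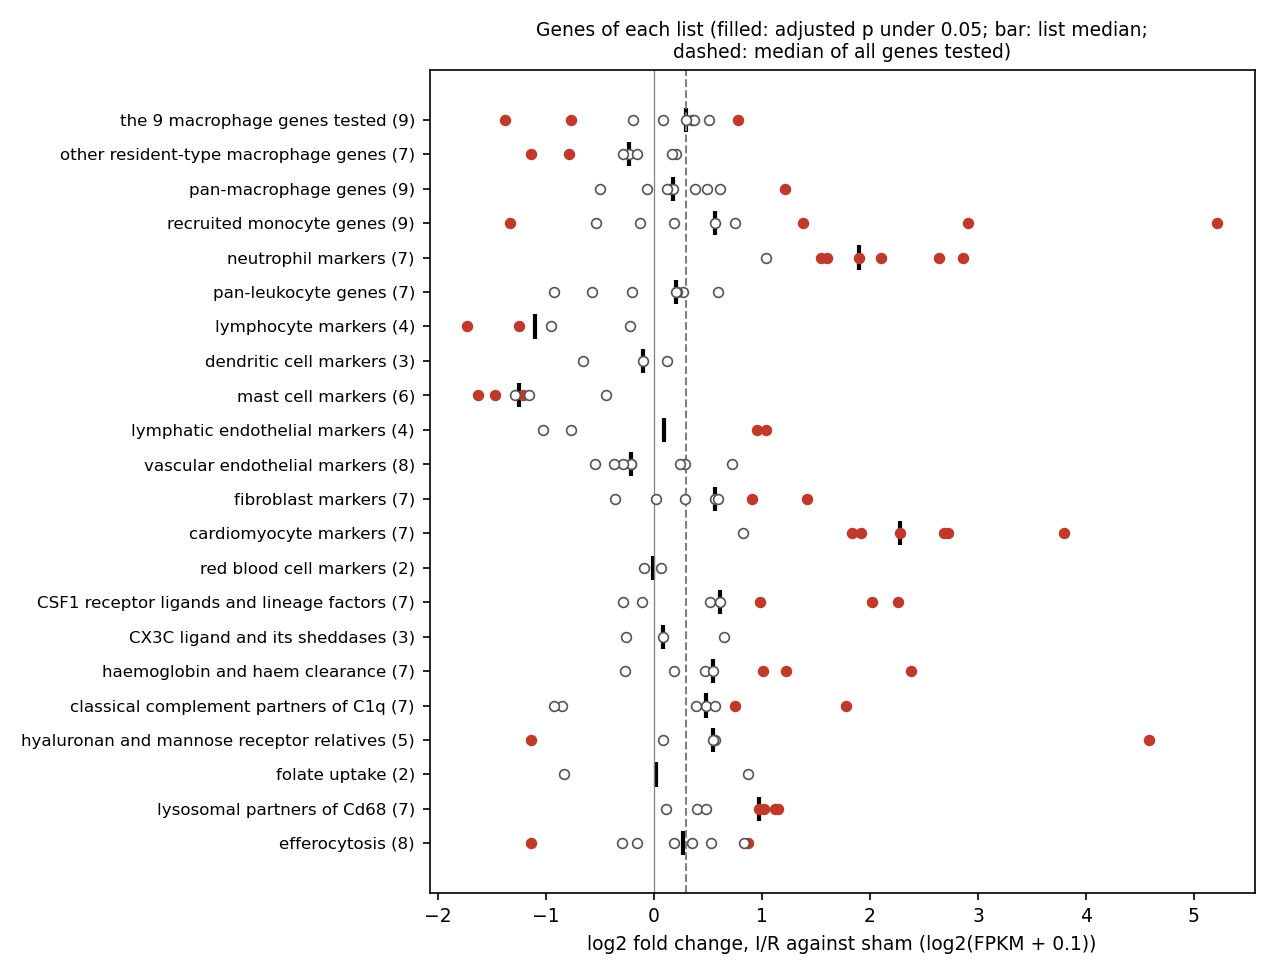
Log2 fold change of I/R against sham for each tested gene of each list, with the number tested in parentheses. Filled points passed an adjusted p under 0.05, the black bar is the list median and the dashed line the median of all genes, 0.29. The 9 macrophage genes and the pan-leukocyte genes lie on both sides of the dashed line, while the neutrophil list lies to the right of it and the 7 other resident-type macrophage genes, the lymphocyte and the mast cell markers lie to the left.

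Markers of other cells were read beside these genes. Their counts stand beside 25.5% of all genes tested called higher and 7.36% called lower. Without the mitochondrial mRNAs these shares were 7.25% and 26.1%. Of the genes of macrophages in general, 1 of 9 tested was higher (Lgmn, a lysosomal protease, 1.22, but 0.44 and not past the test without the mitochondrial mRNAs), none was lower and the median was 0.17, but 2 (Trem2 and Ctss) were lower without the mitochondrial mRNAs. Adgre1, which encodes the F4/80 antigen, was at 0.666 ± 0.0517 FPKM in sham and 0.898 ± 0.108 FPKM in I/R and did not pass. Its log2 fold change was 0.38, and -0.32 without the mitochondrial mRNAs, with no call there either. The summed level of the list was 52.2 to 61.0 FPKM in sham and 70.6 to 79.3 FPKM in I/R, and without Lgmn it was 42.0 to 53.2 FPKM and 47.0 to 54.6 FPKM, which overlap. None of the 7 tested pan-leukocyte genes passed (median 0.20), but 3 (Ptprc, Coro1a and Cd52) were lower without the mitochondrial mRNAs, with a list median of -0.57. Of 9 tested genes of recruited monocytes, Thbs1 (5.22), Il1b (2.90) and Vcan (1.38) rose, none of which is made by monocytes alone, and Vcan did not pass without the mitochondrial mRNAs (0.68, adjusted p = 0.223), while Ccr2, the chemokine receptor that defines recruited monocytes, fell (-1.33, adjusted p = 0.0261). Ccr2 was at 0.658, 0.974 and 1.59 FPKM in sham and 0.282, 0.451 and 0.308 FPKM in I/R. The call was lost without sham replicate 2 or 3 or I/R replicate 1 or 3, with log2 fold changes of -1.36, -1.03, -1.23 and -1.28.

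Of 7 tested neutrophil markers 6 rose, with Retnlg at 2.86 and a median of 1.89, and the list's sum went from 22.8 to 36.2 FPKM in sham to 79.3 to 140 FPKM in I/R without overlap, while Mpo was at 0 in all libraries. Of 4 tested lymphocyte markers 2 fell (Cd8a, -1.73, and Cd3g) and of 6 mast cell markers 3 fell (Cpa3 the furthest, -1.63). The mast cell count was 0 with no filter and 0 to 3 whichever rat was left out, with 0 without sham replicate 1 or I/R replicate 1 or 3. Cpa3 was at 13, 5.31 and 3.70 FPKM in sham, with replicate 1 the highest, and its log2 fold change was -1.12 without that rat. None of 3 dendritic cell, 8 vascular endothelial or 2 red blood cell genes passed. Among fibroblast markers 2 of 7 rose (Tcf21, 1.42), near the 25.5% of all genes tested that did so. Of 7 cardiomyocyte markers 6 rose, with Actc1 at 3.79, and their sum was 3368 to 10977 FPKM in sham and 22534 to 32528 FPKM in I/R. Without the mitochondrial mRNAs, 5 neutrophil and 5 cardiomyocyte markers were still called higher, and none of the fibroblast markers. On that scale 26.1% of all genes tested were called lower. Among the lists 6 of 6 mast cell, 5 of 8 vascular endothelial and 3 of 4 lymphocyte markers were called lower. The counts of 2 of 7 fibroblast markers, 1 of 3 dendritic cell markers and 3 of 9 recruited monocyte genes were near the share of all genes. The part of these other cells in the levels of Cd163, Mrc1 and C1qb was not tested.

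Genes whose profile over the 6 samples was most like the mean of the 9 members were Rp9, Slc23a2, Uri1, Rnf145 and Fcer1g, with a root mean square difference of 0.034 to 0.066 on the log2 scale, where the median gene had 0.436. Only Fcer1g, the gamma chain of Fc receptors, is on a macrophage list used here. For the mean of the 3 C1q genes the nearest were Ascc2, Zfp189, Phc2, Jarid2 and Sf3b4, at 0.059 to 0.082 (median gene 0.460). None of these 10 genes passed the test between groups (adjusted p of at least 0.0521 in limma). The mean of the 9 members averages genes that fell with genes that rose and stayed between -0.12 and 0.12. The genes nearest to it were therefore ones that changed little, and that they did not pass follows from how they were picked.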

How the data were processed

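The authors deposited 1 table of FPKM values, 1 column per rat. The submitters' processing notes name STAR and HTSeq, and the genome build, the annotation and the total behind the FPKM are not given in the sources used here. The labels name a stranded total RNA kit.

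Rows with the same symbol were summed (28293 genes). log2(FPKM + 0.1) of the 10942 genes with a mean of at least 0.5 FPKM over the 6 samples was compared in limma 3.58.1 (R 4.3.3, lmFit, eBayes with intensity trend), with Benjamini-Hochberg adjustment and a threshold of 0.05. Single ratios were compared with two-sided exact permutation tests. The fit was tested on simulated data. Relative depth, read from the whole steps of genes under 0.05 FPKM (2551 of 2552 whole within 0.01), was 1 to 1.18 in sham and 0.873 to 0.935 in I/R against sham replicate 1. Absolute depth is unknown.

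The members and lists were chosen with earlier results of these data known. Genes named were the members, the genes of each list past the threshold with the largest positive and negative change, genes at 0 throughout, ligands and partners of members, and the 5 genes nearest in profile. Replicate numbers are from the labels. Samples that share a number were weakly correlated in their deviations (0.203, 0.117 and 0.118 for numbers 1 to 3). Sham replicate 3 with I/R replicate 2, which share no number, reached 0.120, so a pairing by number is not shown. A second fit still took the number as a block. The other settings were pseudocounts of 1 and 0.01, no filter or a mean of 5 FPKM, TPM, scaling without the 13 mitochondrial mRNAs, median centring, quantile normalization, no trend, the highest row per symbol, and each rat left out. The sum of the macrophage list without Lgmn was added after seeing the data. Listed genes not found by symbol, such as Timd4, Maf and C5ar1, were not analysed here. One listed gene is not reported singly here. Promoter windows are from RefSeq, GRCr8.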

Additional observations from a re-analysis of the deposited data

How the results depend on the processing

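With the replicate block, 3085 genes were higher and 895 lower and no call of a member changed (adjusted p of 0.0189 for C1qb, 0.00471 for Cd163 and 0.0288 for Mrc1). The count of members called lower was 1 with no filter, with TPM and with no trend, 0 at a mean of 5 FPKM, where Cd163 and Mrc1 were not tested, and 1 to 2 with a rat left out. The count called higher was 0 without the mitochondrial mRNAs, with median centring and with quantile normalization, and 0 to 1 with a rat left out. The members' median was 0.44 at a mean of 5 FPKM, 0.49 with TPM, -0.47 without the mitochondrial mRNAs, 0.050 with centring and -0.28 with quantile normalization. The median of all genes tested in the same settings was 0.66, 0.48, -0.46, 0.042 and -0.022. Of all genes, 2790 were higher and 805 lower. Lower genes numbered 166 at a mean of 5 FPKM, 504 with TPM, 2857 without the mitochondrial mRNAs, 1554 with centring and 1559 with quantile normalization. Higher genes numbered 793 without the mitochondrial mRNAs and 1441 with quantile normalization. With a rat left out, 1528 to 2557 were higher and 309 to 881 lower. The share of calls that were higher was 77.6%, and it was 91.9% at a mean of 5 FPKM, 87.3% with TPM, 21.7% without the mitochondrial mRNAs, 56.5% with centring and 48.0% with quantile normalization.

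Signs were followed over the settings for the members, their ratios and the list genes that the naming rule covered. Log2 fold changes that turned sign without the mitochondrial mRNAs were Csf1r (-0.69), Folr2 (-0.42), C1qa (-0.41), C1qb (-0.00079), C1qc (-0.27), Cd68 (-0.47), Cx3cl1 (-0.11), C1r (-0.30), C1s (-0.21) and Serping1 (-0.031). With quantile normalization they were Csf1r (-0.27), Folr2 (-0.032), C1qa (-0.28), C1qb (-0.062), C1qc (-0.31), Cd68 (-0.034), C1r (-0.45), C1s (-0.17), Serping1 (-0.22) and Gas6 (-0.027), and the ratios C1qa to Csf1r (-0.013), C1qc to Csf1r (-0.040) and C1qa to C1qc (0.027). Csf1r was -0.17 with centring and Il34 0.077 with TPM. Among genes named after their values were seen, Spi1 (-0.14), Adgre1 (-0.32), F13a1 (-0.56) and Clec10a (-0.61) also turned sign without the mitochondrial mRNAs. With a rat left out Csf1r ranged from -0.025 to 0.17, Lyve1 from -0.33 to 0.011, Il34 from -0.41 to 0.22, Lyve1 to Csf1r from -0.45 to 0.022 and Cx3cr1 to Csf1r from -0.53 to 0.17. The cause was not tested.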
